A study of Mus musculus with 36 samples.

Results

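Baseline translation in unstressed mouse embryonic fibroblasts is described here by setting ribosome footprints against cytoplasmic RNA, transcript by transcript. The 4 libraries in normal medium, 2 of footprints and 2 of RNA, were taken from the 36 of the series by their titles, and their lists were joined on the transcript identifier. Of 17478 transcripts listed anywhere in the series and 14249 listed in at least 1 of these 4 libraries, 10262 were listed in all 4 and are the members. The cells were fibroblasts of the strain C57BL/6J, connective tissue cells grown from mouse embryos, labelled as kept in normal conditions, without the sorbitol stress. The rest of the series put the same kind of cells under 500, 600 or 700 mOsm by adding sorbitol, for 15 min or 2 h, or let them recover from 700 mOsm for 15 min or 2 h. Both library types were made from cytoplasmic extracts, the footprints from the part of a sucrose gradient that holds ribosomes. Whether the 2 libraries of an assay came from separate cultures is not given by the labels.

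Ribosome profiling digests RNA that is not covered by a ribosome and sequences the protected fragments, so a transcript's footprint density reflects how many ribosomes sit on its coding sequence. That density depends on how much of the mRNA is present, how often ribosomes start on it and how fast they move along it. Dividing it by the RNA level gives the ribosome density per mRNA, commonly called translational efficiency. In fibroblasts, as in other growing mammalian cells, mRNAs are known to differ widely in this ratio, and short coding sequences such as those of ribosomal proteins are known to be densely covered.

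The transcripts carry Ensembl transcript identifiers that neither the lists nor the name tables used here pair with gene names. No transcript is therefore named by gene, the label of the cells could not be checked against fibroblast markers, and the members are described by level, coding length and non-coding length. Footprint values were RPKM over the coding sequence (reads scaled to length and to the library total) and RNA values were FPKM over the transcript (fragments scaled likewise). Whole reads and both lengths were solved from the steps of the values. The footprint libraries held 7242486 and 7574069 reads on listed transcripts, and the RNA libraries 55262396 and 39748466. The 2 footprint libraries differed by little more than sampling noise (chi-square per degree of freedom 1.064 over 9391 transcripts) and were counted as 1 sample, so no value of the ratio has a replicate test. The 2 RNA libraries differed by more than that (47.08 over 11438 transcripts).

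Nearly every transcript with a clear RNA level also had footprints. Of 5818 transcripts with a mean of at least 10 FPKM in RNA, 113, or 1.94%, were listed in neither footprint library. Below 1 FPKM, 68.8% of 2859 transcripts were listed in neither. The footprint lists began at about 5 reads, so an unlisted transcript was not necessarily without footprints. The share unlisted was 1.48% of 4993 transcripts between 10 and 100 FPKM and 4.73% of 825 from 100 FPKM up. Of the 113 abundant transcripts without a footprint value, 39 were at 100 FPKM or more and the highest stood at 2459 FPKM, and together they made up 4.63% of the summed RNA values. Their median transcript length was 1421 nt, against 2606 nt for the abundant transcripts listed in both footprint libraries, and 34.5% of them were shorter than 1000 nt, against 9.6%. In the other conditions 8 of the 113 had a footprint value. Whether the rest lacked footprints or were removed before listing was not tested. In the other direction, 3 transcripts listed in both footprint libraries were in neither RNA list.

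Footprint and RNA levels went together over the whole range of abundance. To keep values that rest on more than a few reads, 9153 of the 10262 members with a geometric mean over the 4 libraries of at least 2 were used. This filter on the product by itself favours neither assay. The other 1109 had a lower mean. Membership, however, hung mainly on footprints: the 10262 were 99.95% of transcripts listed in both footprint libraries and 79.6% of those listed in both RNA libraries. Transcripts listed for RNA but not in both footprint libraries, for whatever reason, are thus missing from the ratios below. Among abundant ones, those missing were more often short, as given above. Spearman's rho of mean footprint and mean RNA level was 0.83 across the 9153 transcripts, and between 0.81 and 0.83 for the 4 pairs of single libraries. These are correlations across transcripts of the same libraries, which are not independent replicates. The slope of the log2 footprint level on the log2 RNA level was 0.995. Footprint levels were spread more widely than RNA levels. The median was 23.1 RPKM for footprints, with 5% of transcripts below 2.90 and 5% above 432 RPKM, a 149-fold range. For RNA it was 14.9 FPKM, with 5% below 2.38 and 5% above 167 FPKM, a 70.0-fold range.

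**Figure D1:**
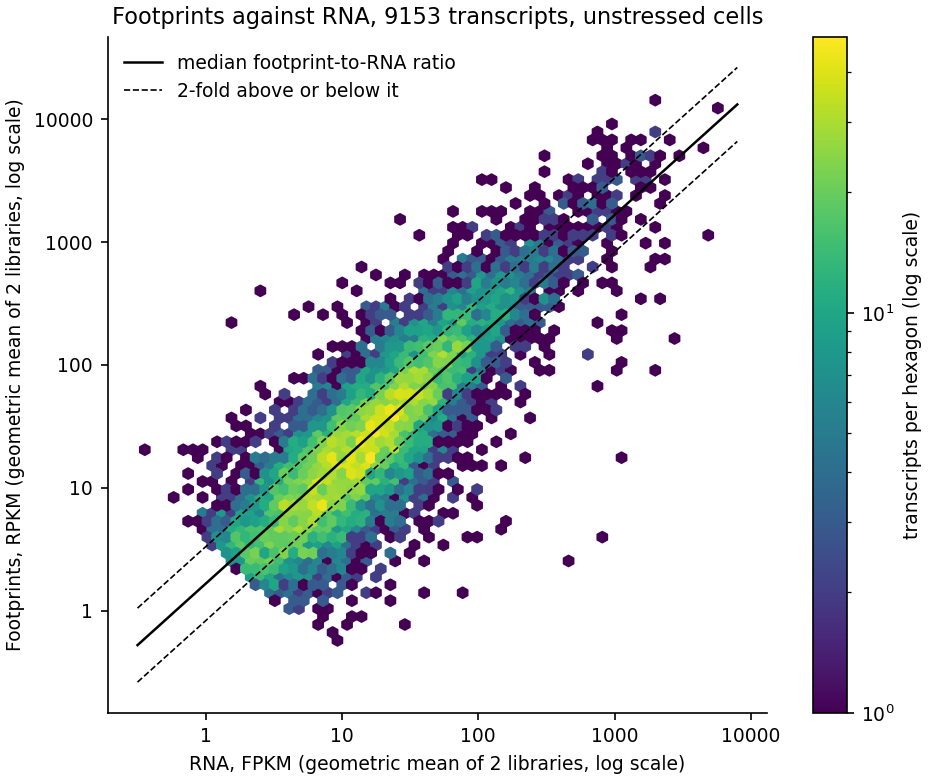
Footprint level (RPKM, vertical, log scale) against RNA level (FPKM, horizontal, log scale) for 9153 transcripts of unstressed cells, with color giving the number of transcripts per hexagon. The solid line is the median ratio and the dashed lines lie 2-fold above and below it; 1598 transcripts lie at or beyond the upper line and 1621 at or beyond the lower one.

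The most abundant transcripts of the 2 assays were partly different ones. Among the 10 highest transcripts of each assay 2 were shared, and among the 100 highest of each 60 were shared. The 100 highest transcripts took 34.5% of the summed footprint values and 30.7% of the summed RNA values. In reads, 50% of the footprint reads lay on 500 transcripts in either footprint library. For RNA, 50% of the reads lay on 768 and 763 transcripts in replicates 1 and 2. These counts are weighted by unlike lengths, since footprint reads are counted over coding sequence and RNA reads over the whole transcript. The 100 transcripts highest in RNA had a median log2 footprint-to-RNA ratio of 0.24. Here and below the ratio is given relative to the median of all 9153 transcripts, which is set to 0.

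The ratio of footprints to RNA varied over more than an order of magnitude. Its SD across transcripts was 1.2 on the log2 scale, against an SD of the difference of 0.19 between the 2 footprint libraries and 0.26 between the 2 RNA libraries. The middle 50% of transcripts lay between -0.72 and 0.71, a 2.70-fold range, and the middle 90% between -1.97 and 1.87, a 14.3-fold range. A ratio at least 2-fold above the median was found in 1598 transcripts (17.5%) and one at least 2-fold below it in 1621 (17.7%). At least 4-fold above were 363 (3.97%) and at least 4-fold below 447 (4.88%). With each RNA library on its own, 1377 of the 1598 stayed at least 2-fold above and 1441 of the 1621 at least 2-fold below. A 2-fold gap between libraries of the same assay was seen in 17 transcripts for footprints and in 29 for RNA. The transcripts at least 2-fold above the median held 47.6% of the summed footprint values and 20.8% of the summed RNA values, and those at least 2-fold below held 3.01% of the footprint values and 17.7% of the RNA values.

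The ends of the distribution are shown by the 2 highest and 2 lowest transcripts among those with at least 100 reads in each library whose call held with either RNA library. ENSMUST00000106251, with a coding length of 519 codons in a transcript of 5536 nt, had 437.6 and 423.6 RPKM of footprints and 2.48 and 2.69 FPKM of RNA, a log2 ratio of 6.65. ENSMUST00000201910, with 108 codons in 2178 nt, had 219.7 and 197.5 RPKM of footprints and 1.45 and 1.64 FPKM of RNA, a log2 ratio of 6.35. Both thus combined a footprint level far above the median transcript with RNA far below it. At the other end ENSMUST00000097682, with 137 codons in 475 nt, had 88.3 and 87.3 RPKM of footprints and 1894 and 1811 FPKM of RNA, a log2 ratio of -5.13. ENSMUST00000086764, with 133 codons in 494 nt, had 177.0 and 179.5 RPKM of footprints and 2896 and 2635 FPKM of RNA, a log2 ratio of -4.68. In both, RNA was far above the upper 5% limit of 167 FPKM, while footprints were above the median of 23.1 RPKM but below the upper 5% limit of 432 RPKM.

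**Figure D2:**
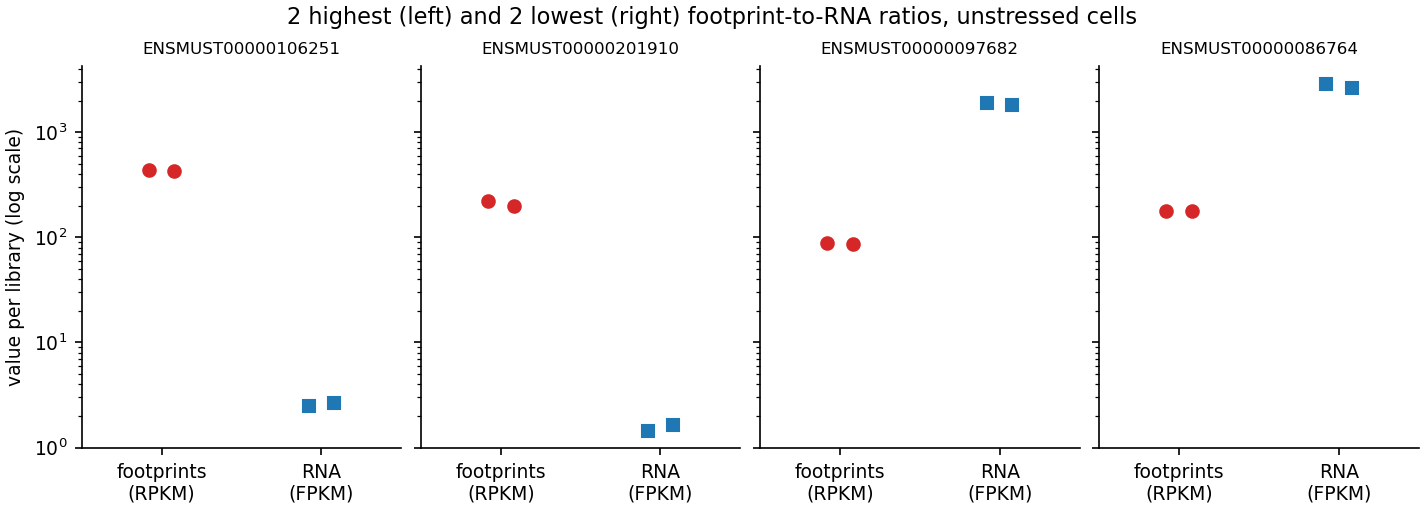
Footprint values (RPKM, circles) and RNA values (FPKM, squares) of each unstressed library on a log scale for the 2 transcripts with the highest and the 2 with the lowest footprint-to-RNA ratio by the naming rule. The 2 libraries of an assay lie close together beside the distance between footprints and RNA: ENSMUST00000106251 had 437.6 and 423.6 RPKM against 2.48 and 2.69 FPKM, and ENSMUST00000097682 had 88.3 and 87.3 RPKM against 1894 and 1811 FPKM.

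By that rule the 10 highest transcripts had log2 ratios of 4.28 to 6.65 and the 10 lowest -5.13 to -4.02. Up to 200 codons were found in 8 of the 10 highest and 4 of the 10 lowest; over all 9153 transcripts, 1.99% had up to 100 codons and 11.8% over 100 to 200. In each of the 10 highest the non-coding sequence was longer than the coding sequence, as it was in 42.9% of all 9153 transcripts. That share is over all coding lengths, and a short coding sequence is more easily exceeded. Whether the 10 differ in this from other transcripts of like coding length was not tested. RNA of the 10 highest lay between 1.45 and 37.6 FPKM. At low FPKM the minimum of 100 RNA reads asks for a longer transcript than at high FPKM. Of the 10 lowest, 2 had more non-coding than coding sequence, and 3 had over 1600 codons, as did 4.13% of all transcripts. In 6 of the 10 lowest RNA was over 100 FPKM in both libraries. A mean of at least 100 FPKM was found in 784 of the 10262 members. The rule asks for 100 footprint reads, which at a low ratio takes much RNA or a long coding sequence. These 2 traits thus lean on the rule, and whether low-ratio transcripts share them without it was not tested. Coding lengths of the 10 lowest ran from 104 to 2235 codons. An RNA value is divided by the length of the whole listed transcript, so a shorter isoform in the cells would change it; this was not tested.

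The ratio went down with coding length, class by class. The shortest class, 182 transcripts of up to 100 codons, had a median log2 ratio of 1.65, with quartiles of 0.99 and 2.38, or 3.15-fold the median transcript. The median was 0.93 for 1082 transcripts with over 100 to 200 codons, 0.32 for 2684 with over 200 to 400, -0.15 for 3314 with over 400 to 800, and -0.57 for 1513 with over 800 to 1600. The longest class, 378 transcripts of over 1600 codons, stood at a median of -1.06, with quartiles of -1.52 and -0.51. The interquartile ranges of the shortest and the longest class did not overlap. With RNA replicate 1 alone the shortest and longest class had medians of 1.59 and -1.03, and with RNA replicate 2 alone 1.71 and -1.06. Among the 6786 transcripts with at least 100 reads in each library, with the same zero point, the medians ran in the same order, with 1.92 in the shortest class and -1.04 in the longest. A short coding sequence needs a higher RPKM to reach 100 footprint reads. The minimum was passed by 125 of the 182 shortest and 356 of the 378 longest. It thus leans toward high ratios in short classes, and its part in the value of 1.92 was not tested.

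Counts past the 2-fold lines showed the same order. In the shortest class 136 of 182 transcripts (74.7%) were at least 2-fold above the median and 7 below, against 17.5% and 17.7% of all transcripts. Short transcripts without a footprint value are not among the 182. In the class of over 100 to 200 codons 503 of 1082 were above (46.5%) and 77 below. The class of over 400 to 800 codons had 296 above and 609 below. In the longest class 4 of 378 were above and 200 (52.9%) below. At least 4-fold above were 66 transcripts of the shortest class (36.3%) and 0 of the longest, and at least 4-fold below were 4 and 41. Classes were not uniform: in that of over 100 to 200 codons single transcripts ran from -8.13 to 6.35, and in that of over 400 to 800 codons from -5.92 to 6.65. Taking out the median of each class brought the SD of the ratio to 1.07, against 1.2 before.

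**Figure D3:**
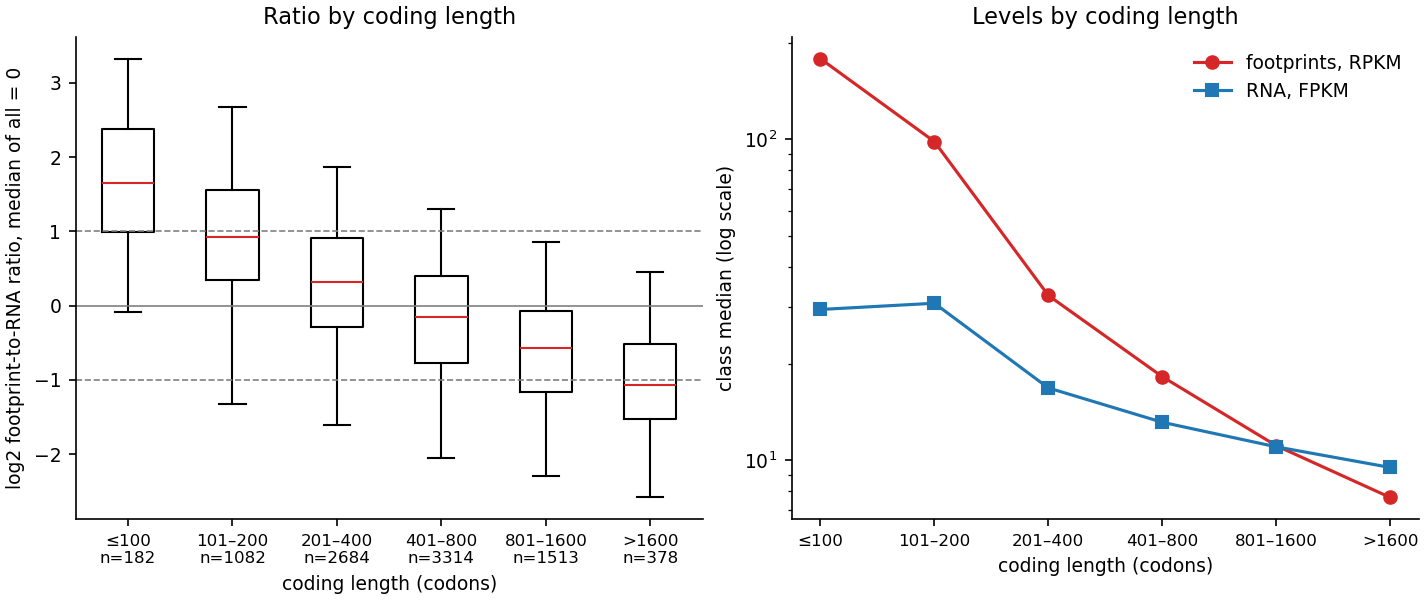
Left, log2 footprint-to-RNA ratio by coding length class in unstressed cells (line, median; box, quartiles; whiskers, 5th and 95th percentile; dashed lines, 2-fold from the median of all transcripts). Right, class medians of footprints (RPKM, circles) and RNA (FPKM, squares) on a log scale, where footprints go from 178 to 7.65 RPKM between the shortest and the longest class and RNA from 29.5 to 9.495 FPKM.

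Both levels were higher in the shorter classes, footprints by more than RNA. The median footprint level was 178 RPKM in the shortest class and 7.65 RPKM in the longest, 23.3-fold apart, and the median RNA level 29.5 and 9.495 FPKM, 3.11-fold apart. Footprints per RNA molecule, the ratio multiplied by coding length, did go up with length, but by less than in proportion. From the shortest to the longest class the median coding length was 25.3-fold greater, from 82 to 2075 codons, and the median number of footprints per RNA molecule 4.42-fold greater. Over all transcripts the slope of log2 footprints per RNA on log2 codons was 0.475, where 1 would mean equal density at every length. The ratio is itself divided by coding length, so the 2 statements rest on the same values.

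Long coding sequences took a larger share of the footprint reads than of the summed RNA values. The 2 shares are unlike measures: read counts grow with coding length, while FPKM is already divided by transcript length. At equal ribosome density long coding sequences would also take a larger share of reads than of summed FPKM. The class of over 1600 codons was 4.13% of the transcripts and held 3.93% and 3.94% of the footprint reads, against 1.42% and 1.44% of the summed RNA values of RNA replicates 1 and 2. Transcripts with over 400 to 800 codons held the largest share of footprint reads of the 6 classes, 33.6% in both libraries, against 26.1% and 25.7% of the summed RNA values. The shortest class held 3.03% and 3.04% of the footprint reads, against 4.71% and 4.46% of the summed RNA values.

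The order by coding length held at low, middle and high RNA levels. With transcripts split into 3 equal groups by RNA level, the medians of the shortest and longest class were 1.84 and -0.97 in the lowest group (up to 8.57 FPKM), 1.71 and -1.09 in the middle group, and 1.64 and -1.11 in the highest (from 25.9 FPKM). In each of the 3 groups the 6 classes ran in the same order. RNA level by itself went little with the ratio, with a Spearman's rho of 0.03 across transcripts. In 10 groups of rising RNA level the median ratio was 0.24 in the lowest (median 2.38 FPKM), at its lowest of -0.21 in the fifth (12.7 FPKM), and 0.32 in the highest (167 FPKM). In the lowest group the filter on low values keeps transcripts with more footprints, and the part of this in its value was not tested.

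Non-coding length went with the ratio less than coding length. The 2538 transcripts with over 2000 nt outside the coding sequence had a median of 0.16, against -0.04 for 2001 transcripts with up to 500 nt, and medians of -0.08 and -0.04 for the 2 classes between. With RNA replicate 1 alone these 2 outer classes had medians of 0.12 and 0.00, a difference of 0.12 in place of 0.20, and with RNA replicate 2 alone 0.18 and -0.07. At least 2-fold above the median were 23.5% and 15.3% of the longest and the shortest non-coding class, against 17.5% of all. Within a coding length class, transcripts with over 2000 nt outside the coding sequence had the higher median in each of the 6 classes, by unequal amounts. With over 100 to 200 codons it was 1.38, against 0.82 for transcripts with up to 500 nt; with over 200 to 400 codons it was 0.67 against 0.18, and with over 800 to 1600 codons -0.53 against -0.61. The order by coding length was present in transcripts with little non-coding sequence: where it was at most 500 nt, the medians ran from 1.62 in 74 transcripts of the shortest class to -1.14 in 77 of the longest.

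**Figure D4:**
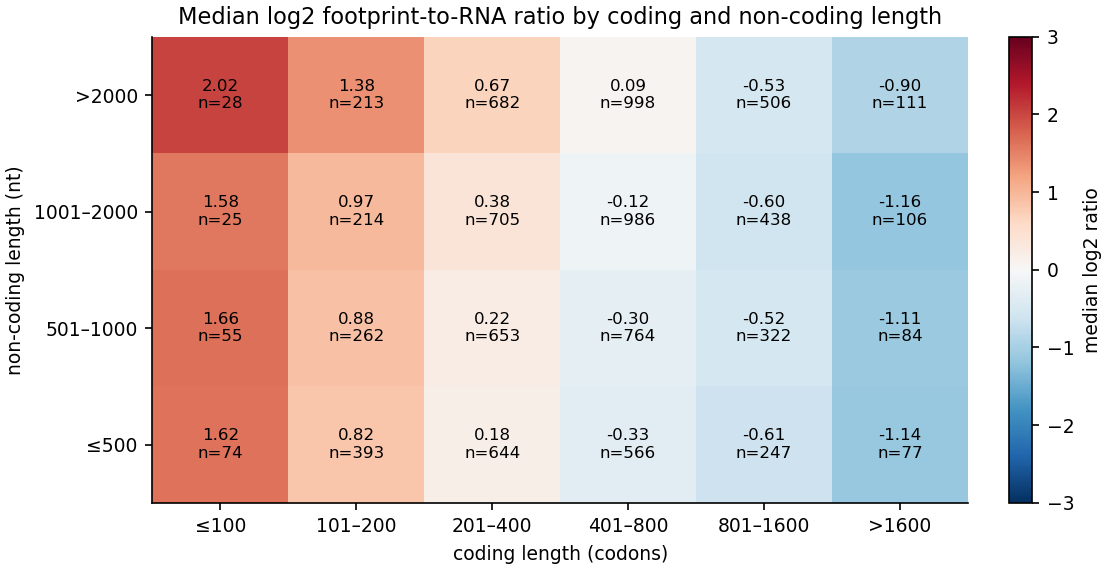
Median log2 footprint-to-RNA ratio of unstressed cells by coding length (horizontal, codons) and non-coding length (vertical, nt), with the number of transcripts in each cell. Medians go down from left to right in each row, from 1.62 to -1.14 with up to 500 nt and from 2.02 to -0.90 with over 2000 nt.

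These length relations depended on how RNA reads are scaled. FPKM counts reads over the whole transcript. With the same RNA reads divided by the coding length instead, the difference between the longest and the shortest class was -1.18 in place of -2.72, with medians of 0.76 in the shortest and -0.42 in the longest, and the order of the classes stayed. The order by non-coding length turned: transcripts with over 2000 nt had a median of -0.55 and those with up to 500 nt one of 0.57, since that scaling counts reads from non-coding sequence as if they lay on the coding sequence.

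The unstressed ratios were set beside those of 6 other conditions of the series, each computed within its own 4 libraries. These were 2 h at 500 or 600 mOsm, 15 min or 2 h at 700 mOsm, a short recovery (15 min at 700 mOsm, then 15 min without stress) and a long recovery (2 h, then 2 h). The RNA libraries labelled as 2 h of recovery after 15 min of stress and 15 min of recovery after 2 h were left out, since their labels and the names of their lists give different conditions. A fixed set of 953 transcripts with at least 100 reads in every library used was compared; it holds abundant transcripts, since the 700 mOsm footprint libraries were the shallowest. In that set the SD of the log2 ratio was 1.17 in unstressed cells. It was 1.27 at 500 mOsm, 1.42 at 600 mOsm, 1.496 and 1.66 after 15 min and 2 h at 700 mOsm, 1.07 in the short recovery and 1.16 in the long recovery. Spearman's rho of footprints and RNA was 0.80 in unstressed cells and 0.74, 0.66, 0.63, 0.60, 0.81 and 0.79 in the other 6 in that order. The order of the SDs depended on the set. A wider set held those of the 9153 transcripts used above that were listed in a condition's 4 libraries, 5757 to 9153 of them. All of these had passed the filter on unstressed values. In this set unstressed cells had an SD of 1.2, against 1.69 at 500 mOsm and 1.91 at 600 mOsm. It was 1.63 and 1.76 after 15 min and 2 h at 700 mOsm, 1.19 in the short recovery and 1.48 in the long recovery. There the long recovery lay above unstressed cells and 600 mOsm was the highest. The unstressed footprints count as 1 sample, so these differences have no test.

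Transcripts kept their place in the order of ratios more in some conditions than in others. In the 953 transcripts, Spearman's rho of the unstressed ratio with that of the other condition was 0.96 at 500 mOsm and 0.90 at 600 mOsm. It was 0.69 and 0.79 after 15 min and 2 h at 700 mOsm, and 0.97 and 0.96 in the short and the long recovery. These 953 had to keep at least 100 footprint reads under stress. In the wider set rho was lower, at 0.904, 0.791, 0.514, 0.70, 0.953 and 0.925 in the same order. In unstressed cells 169 of the 953 were at least 2-fold above the median (17.7%) and 135 at least 2-fold below (14.2%). Of the 169, the number again at least 2-fold above was 156 at 500 mOsm (18.7% of all 953 were), 152 at 600 mOsm (19.7%), 133 after 15 min at 700 mOsm (24.6%) and 143 after 2 h (25%). It was 134 in the short recovery (15.3%) and 148 in the long recovery (17.1%). Of the 135, the number again at least 2-fold below was 124 at 500 mOsm (18.3% of all 953 were), 122 at 600 mOsm (21.9%), 73 after 15 min at 700 mOsm (23.8%) and 109 after 2 h (28.5%). It was 111 in the short recovery (12.8%) and 116 in the long recovery (16.1%). Both counts were lowest after 15 min at 700 mOsm, though the 133 there were close to the 134 of the short recovery. After 15 min at 700 mOsm 19 of the 135 lay above the median and 12 of the 169 below it. At 500 mOsm these numbers were 0 and 0. In the wider set 242 of 954 and 156 of 968 had crossed the median after 15 min at 700 mOsm. At 500 mOsm 5 of 1498 and 21 of 1503 had.

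Coding length ordered the ratio in the same way in most conditions. In unstressed cells the 60 transcripts of the set with up to 100 codons had a median of 1.31 and the 33 with over 1600 codons one of -1.89. The 2 values were 1.30 and -1.93 at 500 mOsm, 1.48 and -2.36 at 600 mOsm, 1.73 and -2.50 after 2 h at 700 mOsm, 1.23 and -1.57 in the short recovery, and 1.16 and -1.70 in the long recovery. After 15 min at 700 mOsm the shortest class stood at 1.48 and the longest at -0.02, above the class of over 800 to 1600 codons at -0.94. The wider set, those of the 9153 transcripts that were listed in a condition, does not hold the same ones in each. In it the longest class stood at -1.06 in unstressed cells (378 transcripts), at 0.92 after 15 min at 700 mOsm (376) and at -1.09 after 2 h (329). At 15 min it was then above the classes of over 200 to 400, over 400 to 800 and over 800 to 1600 codons, at 0.18, -0.60 and -0.39. In the other 4 conditions it lay between -1.99 and -1.11, below each shorter class.

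**Figure D5:**
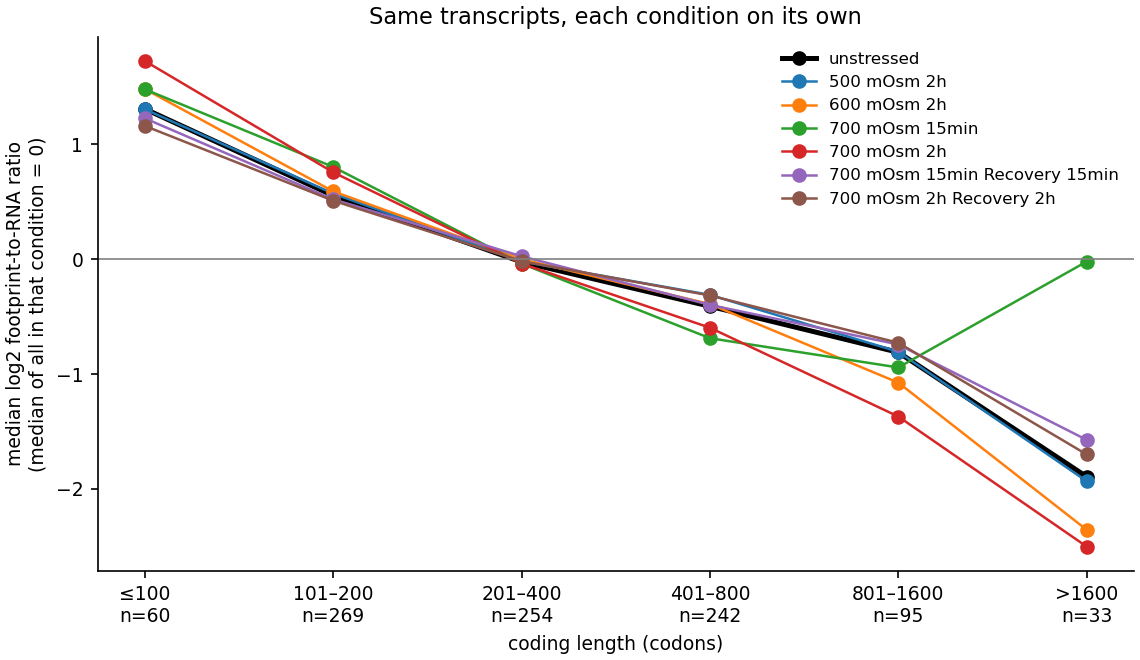
Median log2 footprint-to-RNA ratio by coding length class (codons) for the same 953 transcripts in unstressed cells (thick line) and 6 other conditions, each relative to its own median. The medians go down from class to class in each condition, except for the longest class after 15 min at 700 mOsm, at -0.02 against -1.89 in unstressed cells.

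The 4 transcripts printed above did not all keep their ratio. ENSMUST00000097682 had footprints of 88.3 and 87.3 RPKM in unstressed cells and of 1585 and 1581 RPKM after 2 h at 700 mOsm. Its RNA was 1894 and 1811 FPKM in unstressed cells and 2714 and 2639 FPKM under that stress. Its log2 ratio was thus -5.13 in unstressed cells and -1.16 after 2 h at 700 mOsm. In the remaining conditions its log2 ratio ran from -4.83 to -2.57, with -3.23 and -3.46 in the short and the long recovery. RPKM is scaled to the library total, which was 7248764 and 7580229 reads in the unstressed footprint libraries and 744700 and 920212 in those of 2 h at 700 mOsm. The higher RPKM is a larger share of a smaller library and does not give the number of footprints per cell. ENSMUST00000106251 had a log2 ratio of 6.65 in unstressed cells and of 3.99 to 6.68 in the other 6 conditions. ENSMUST00000201910 had log2 ratios of 6.35 in unstressed cells and of 5.25 to 8.07 in the other 6 conditions. ENSMUST00000086764 had -4.68 in unstressed cells and -6.52 to -5.00 in the 5 other conditions in which it was listed in all 4 libraries.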

How the data were processed

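The build GRCm38 and the programs STAR, Bowtie and cutadapt were used per the submitters' processing notes, which list no version. How reads were assigned to transcripts, and from which annotation, is not given in the sources used here. Each library's deposited list gave transcript identifiers and values, in RPKM for footprints and in FPKM for RNA by the names of the lists. Reads and lengths were solved from the deposited values: library totals from common divisors and lengths from denominators over 18 libraries of an assay. Tested on simulated data, reads came out exact in every one of 18 footprint libraries for 99.59% of values or more, and in every one of 18 RNA libraries for 99.14% or more. The 4 unstressed libraries held between 7242486 and 55262396 reads; the log2 difference between the footprint libraries had an SD of 0.192, or 0.114 from 100 reads up. Per the labels' protocols the lysis buffer held cycloheximide, which stops ribosomes. Of the 9153 coding lengths used, 99.9% were multiples of 3.

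The ratio is the mean log2 RPKM minus the mean log2 FPKM of the 2 libraries (pseudocount 0, as every value kept was above 0), centred on its median. In a simulation of the unstressed libraries over 9153 transcripts, 199 of 199 transcripts given a 4-fold change passed 2-fold, as did 5 unchanged ones. It held sampling noise only, with all other transcripts set to the median ratio, whereas the RNA libraries differed by more than that. It therefore checks the calculation and does not give the rate of false calls in the real libraries. Named transcripts follow a fixed rule: highest and lowest ratio among those with at least 100 reads in each library. Without gene names the planned gene and marker lists were not applied, and at most 2 identifiers per direction are printed. Alternatives were pseudocount, filters, centring, scaling, leaving out each library, and limma 3.58.1 (R 4.3.3) on the 4 libraries with and without a replicate block; other values were computed with Python 3.11.15. Members, classes and lists were chosen with earlier results of these data known.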

Additional observations from a re-analysis of the deposited data

How the results depend on the processing

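Leaving out 1 library at a time gave 1529 to 1696 transcripts at least 2-fold above the median and 1560 to 1694 below, rho of 0.816 to 0.835, an SD of 1.178 to 1.235, a long-minus-short difference of -2.769 to -2.625 by coding length, and 0.119 to 0.248 by non-coding length. With at least 100 reads in each library and the ratio recentred, 1130 of 6786 transcripts were above and 1051 below, rho was 0.802, the SD 1.098 and the coding length difference -2.955; with no filter rho was 0.871, and a pseudocount of 1 gave an SD of 1.111. RNA reads per coding nucleotide gave rho 0.849, SD 1.127, and length differences of -1.183 (coding) and -1.117 (non-coding). A filter on RNA alone, at least 10 FPKM in both libraries, chosen after seeing the data, left 5503 transcripts, 920 above and 985 below, with rho 0.75. Fewer transcripts enter under both filters, which lowers counts. The read minimum also asks a higher RPKM of short coding sequences than of long ones. With the footprint libraries counted as 2, limma called 1598 and 1620 transcripts past 2-fold at an adjusted p of 0.05 without a replicate block, and 1598 and 1621 with it. These are nearly the counts of the 2-fold line alone. Since the footprint libraries are not independent replicates, the test could hardly differ from that line and adds no support. The labels tie the replicate numbers to no shared culture or day. Replicate 1 deviations of the 2 assays had a correlation of -0.088, which says little about pairing, since the footprint libraries differ by little more than sampling noise. The median rho of the unstressed ratio with the other 6 conditions was 0.931, or 0.848 with no read minimum. Depth limits what can be said of transcripts under 5 footprint reads.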
